A study of Mus musculus with 6 samples.

Results

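The nuclear-encoded genes of the mitochondrial respiratory chain and ATP synthase were compared, complex by complex, between myeloid cells of the infarcted left ventricle and myeloid cells of the spleen. The genes were chosen by name from the array's annotation: names that start with Nduf, Uqcr, Atp5 or Cox4 to Cox8, and Sdha, Sdhb, Sdhc, Sdhd, Cyc1 and Cycs. This gave 92 genes (125 probes) of 31791 named features, and each gene was represented by its brightest probe. Of the 92, 36 encode complex I subunits, 4 complex I assembly factors, 4 complex II, 9 complex III, 18 complex IV and 15 ATP synthase. Cycs, which encodes the electron carrier cytochrome c, and the pair Ndufa4 and Ndufa4l2 were kept apart from these groups. Another 3 genes carry such a name without encoding a subunit: Cox4nb (now Emc8), Atp5s (now Dmac2l) and Atp5sl (now Dmac2).

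The data were 6 single-colour arrays, 3 of heart (heart 1, heart 2 and heart 4) and 3 of spleen (spleen 1, spleen 2 and spleen 4). The mice were wild type, of the strain C57BL/6N, and both tissues were taken on day 3 after AMI (acute myocardial infarction), so uninjured animals were not part of the comparison. Cells were sorted by flow cytometry as CD45high CD11bhigh. They were also low for B and T cell antigens (CD45R/B220 and CD90.2/Thy-1.2), for the natural killer cell antigens NK‑1.1 and CD49b/DX5, and for the neutrophil antigen Ly6G, a gate that takes monocytes, macrophages and other myeloid cells together. The design states that the spleens and ventricles were analysed individually. It does not say whether a spleen and a ventricle came from the same animal, and the animals' age and sex are not given in the sources used here. With 3 samples per tissue, the number of arrays limits the precision of every value. In such bulk samples, fewer cells of a type and less RNA per cell cannot be told apart.

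The respiratory chain is a set of protein complexes in the inner mitochondrial membrane. Complexes I and II take electrons from NADH and succinate, ubiquinone passes them to complex III, and cytochrome c carries them to complex IV, which reduces oxygen to water. Complexes I, III and IV pump protons, and ATP synthase uses the proton gradient to make ATP. Most subunits are encoded in the nucleus and a small set in the mitochondrial genome. Several complex IV subunits exist as a widely expressed isoform and a second isoform that is abundant in heart and skeletal muscle, among them COX6A2, COX7A1 and COX8B. In macrophages, the balance between oxidative phosphorylation and glycolysis is known to differ between inflammatory and reparative states.

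The probe sequences show what separates close isoforms on these arrays, so that of Cox7a1, the member with the largest difference, is given whole, and those of its widely expressed counterpart Cox7a2 and of 3 other members with large differences are given by their leading 30 bases. All are written 5′ to 3′ as in the scanner files.
Cox7a1: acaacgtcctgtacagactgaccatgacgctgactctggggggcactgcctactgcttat
Cox7a2: ctttggggatcaatatttattgatgtgtat
Ndufab1: tgtaaatggctactttaaatcccagggtag
Atp5g1: tgccagtcctggtgctggagtctactgagc
Cycs: atgaatggctagcaatgtttttgttggaca
In mouse build mm9, as the scanner files give it, the Cox7a1 probe lies on the plus strand of chromosome 7 at 30970337 to 30970948. Its 60 bases span 612 bases of genome, so the probe crosses at least 1 splice junction. The others are on the minus strand and each spans 60 bases: Cox7a2 on chromosome 9 at 79603215 to 79603274, Ndufab1 on chromosome 7 at 129231667 to 129231726, Atp5g1 on chromosome 11 at 95934315 to 95934374 and Cycs on chromosome 6 at 50515092 to 50515151. Their positions relative to exons and untranslated regions were not analysed here. The Cox7a1 and Cox7a2 probes share no run longer than 6 bases. Over the 9 pairs of isoform probes compared (the Cox4i, Cox6a, Cox6b, Cox7a, Cox8, Ndufa4 and Atp5g families), the longest shared run was 4 to 7 bases.

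Of the 92 genes, 88 were tested, that is, in heart, in spleen or in both, the scanner program called their probe well above background on each of the 3 arrays. Levels are given as log2 of the processed signal minus the 75th percentile of the same array, and differences as log2 heart minus spleen. The fitted differences of most of these genes were small. Their median was 0.28 (1.21-fold), against 0.10 over all 17772 features tested, and the differences ran from −0.84 to 1.84. At an adjusted p under 0.05 (limma, Benjamini-Hochberg over all features), 3 genes were called higher in heart (Cox7a1, Ndufab1 and Atp5g1) and 1 lower (Atp5sl). Of all features, 15.4% were called in either direction, 8.86% higher and 6.5% lower, so the members' share of calls was below that of the array. Without adjustment, 6 members had a p under 0.05, against 32% of all features. With quantile scaling 2 members were called higher and 2 lower (15.2% of all features called). With arrays centred on their median 1 was called higher and 0 lower (12.5% of all features). Left with 2 heart arrays, by omission of heart 1, heart 2 or heart 4, limma called 0 members, with 4 to 6 at an unadjusted p under 0.05. In these fits the share of all features called also fell, to between 2.65% and 3.1%.

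Most members nevertheless had a fitted difference above 0 under the 75th-percentile scaling, 77 of 88, against 58.4% of all features. With quantile scaling between arrays this was 39 of 88 and the median was −0.067, and with arrays centred on their median it was 84 of 88 with a median of 0.39. The median of all features was 0.045 and 0.22 under these scalings. Relative to it, the members lay above under percentile and median scaling, which differ only by a constant per array. Their gaps to all features are thus nearly equal by construction, while under quantile scaling the members lay below. The direction of the set as a whole therefore changed with the scaling of the arrays. The 3 values of heart lay wholly above those of spleen for 20 members and wholly below for 1 (24.5% and 16.5% of all features, 41% in all).

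**Figure D1:**
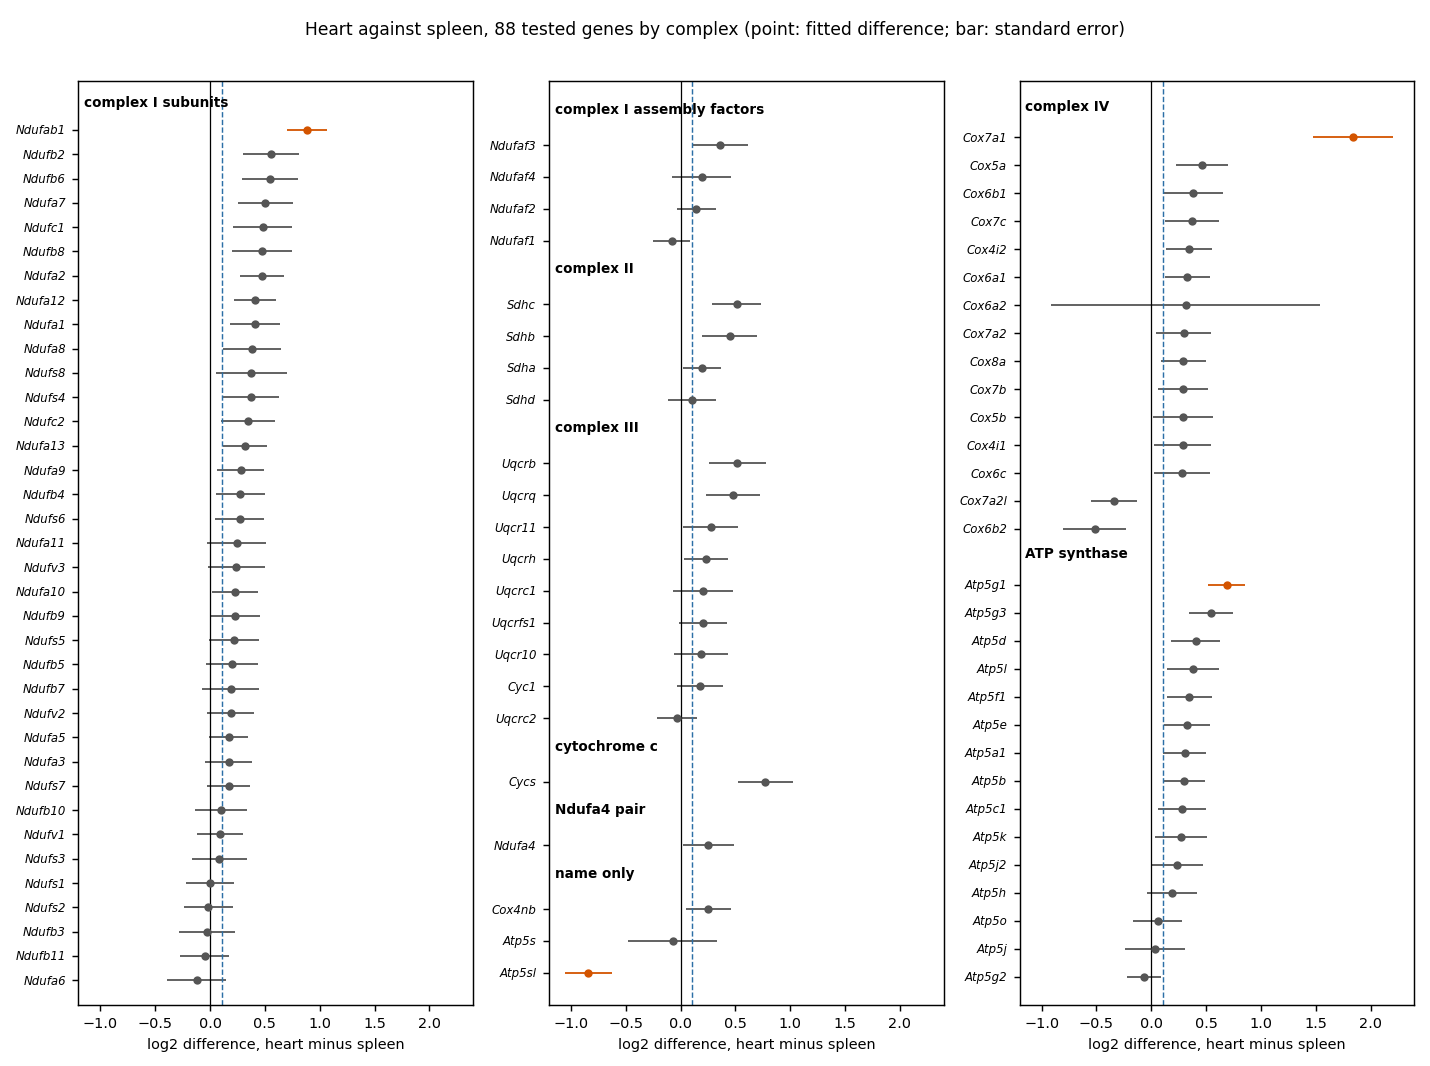
Fitted log2 difference, heart minus spleen, of each of the 88 tested genes by complex, with its standard error as a bar; orange points are genes with an adjusted p under 0.05, the solid line marks 0 and the dashed line the median of all tested features (0.10). Most points lie between 0 and 0.6, Cox7a1 lies apart at 1.84, and the bar of Cox6a2 is the widest.

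Spleen 1 stood apart from the other arrays in these genes. It gave the lowest of the 6 values for 78 of 88 members, against 37.6% of all features. Centred on each gene's own mean, the average over all members was 0.15, 0.026 and 0.22 on heart 1, heart 2 and heart 4. It was −0.44 on spleen 1, and −0.00038 and 0.041 on spleen 2 and spleen 4. The same average over all features was −0.055 on spleen 1. The SD between spleen samples exceeded that between heart samples for 84 of 88 members (83.3% of all features), with medians of 0.36 and 0.12. Without spleen 1, the median difference of the members was 0.10 and that of all features 0.043, with 63 of 88 members above 0. Cox7a1 and Ndufab1 were again called without it, Atp5g1 (adjusted p = 0.0568, limma) and Atp5sl (adjusted p = 0.0743) were not, and Cox6a2 and Cox6b2 were called instead.

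Markers of other cells moved with the same array. The B cell markers had a summed log2 level of 6.70 in spleen 1, against 1.40 to 1.59 in heart and 2.15 to 2.50 in the other spleens. The summed level of T and NK cell markers was 5.86 in spleen 1, against 3.00 to 3.28 in heart and 3.32 to 4.16 in the other spleens. Erythroid markers reached 8.69 in spleen 1, against 4.62 to 6.71 in heart and 4.65 to 5.96 in the other spleens. Conversely, the 6 markers of the sorted cells had their lowest summed level in spleen 1, 7.37 against 8.23 to 8.51 on the other 5 arrays. The brightest of them, Lyz2 (6.62 against 7.27 to 7.72) and Csf1r (5.17 against 5.94 to 6.75), were lowest there. Itgam (CD11b) was lowest there too (3.68 against 3.80 to 4.33), but Ptprc (CD45) was highest there (3.04 against 2.75 to 2.99). None of these 4 lists had a gene called between the tissues by limma (0 of 5, 0 of 5, 0 of 9 and 0 of 6 tested). Unadjusted p-values under 0.05 numbered 3, 2, 1 and 2. Neutrophil markers (8 of 12 called lower in heart), neutrophil precursor markers (6 of 7 lower) and cell cycle genes (15 of 22 lower, 1 higher) also differed between the tissues. With no filter on dim probes these counts were 6 of 12, 2 of 7 and 10 of 22 called lower, and 0 higher. The part of any of these in the members' differences was not tested.

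**Figure D2:**
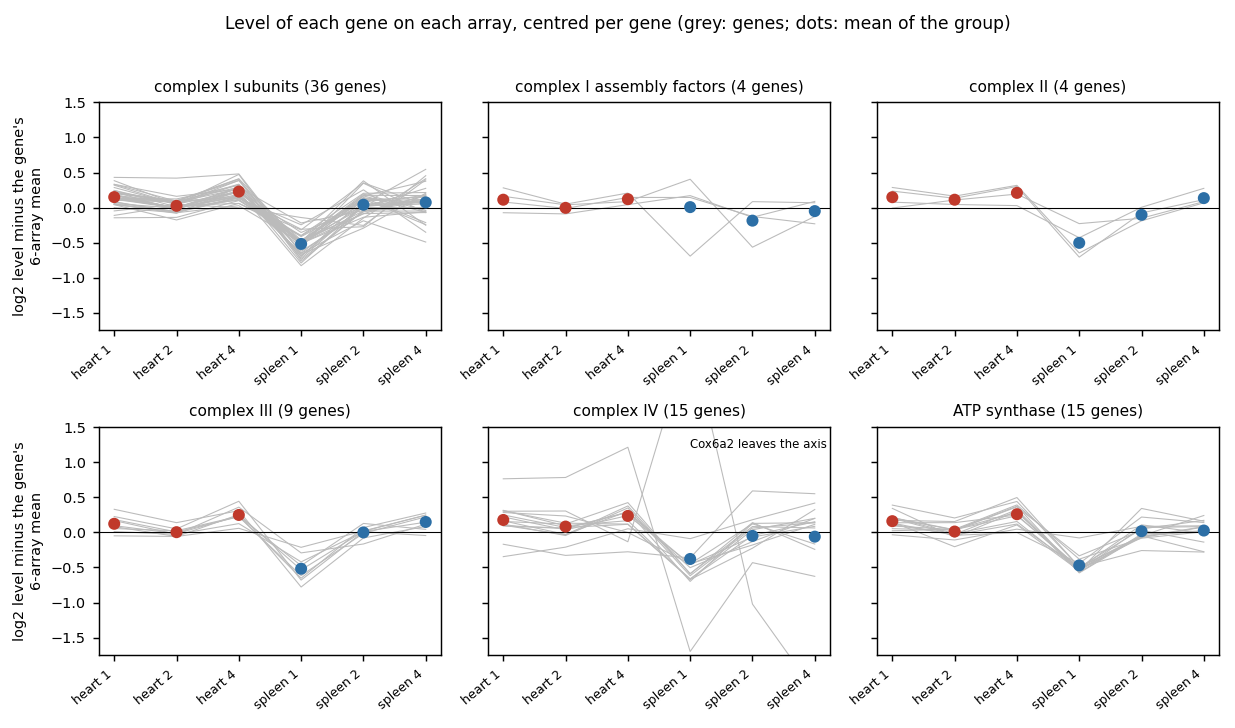
Log2 level of every tested gene on each of the 6 arrays, centred on the gene's own mean, in 6 panels by complex; grey lines are genes and dots are the mean of the group, red for heart and blue for spleen. In 5 panels the mean on spleen 1 lies between −0.52 and −0.38 and is the lowest, while for the 4 assembly factors it is 0.0069; the line of Cox6a2 leaves the axis in the panel of complex IV.

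Complex I, the NADH dehydrogenase, was represented by 36 subunit genes, all of them tested, with a median difference of 0.24 and a range of −0.12 to 0.89. Of these, 32 were above 0, 1 was called higher and 0 lower. The 7 genes of the catalytic core, which carries the flavin and iron-sulphur clusters, had a median of 0.094, and the 29 accessory subunits a median of 0.28. With quantile scaling both medians were below 0, at −0.22 and −0.055, and the core again lay below the accessory subunits. Percentile and median scaling each subtract a constant from an array, so the gap between these groups cannot differ between them. Spleen 1 was the lowest array for 34 of the 36 genes.

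Ndufab1, the mitochondrial acyl carrier protein that also serves fatty acid and lipoate synthesis, was the called gene of complex I. Its log2 level was 0.20, 0.19 and 0.25 in heart 1, heart 2 and heart 4, and −0.88, −0.41 and −0.72 in spleen 1, spleen 2 and spleen 4. The heart values were nearly equal and lay above all spleen values. The difference was 0.89 ± 0.18 (SE, n = 3 and 3), 1.85-fold, with an adjusted p of 0.0268 by limma. It lay between 0.78 and 1.02 under the 21 alternative treatments of the data. Its adjusted p was above 0.05 under 8 of them, and was 0.107 to 0.118 when any 1 heart array was left out.

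The next largest differences in complex I were those of Ndufb2 and Ndufb6, accessory subunits of the membrane arm. Ndufb2 had levels of 4.39, 4.12 and 4.55 in heart and 3.33, 4.02 and 4.03 in spleen, which did not overlap. Its difference of 0.56 ± 0.25 (SE) was not called (adjusted p = 0.189, limma). Ndufb6 had levels of 4.06, 3.72 and 4.06 in heart and 2.98, 3.80 and 3.43 in spleen, with spleen 2 inside the heart range and a difference of 0.55 ± 0.26 (SE, adjusted p = 0.199, limma). In both genes spleen 1 was the lowest value. Ndufa7, an accessory subunit outside the rule for named genes and singled out after its values were seen, was called only when spleen 4 was left out (0.73, adjusted p = 0.0468, limma).

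The 4 complex I assembly factors with the Ndufaf name, which help build the enzyme and are no part of it, had a median of 0.17 and 0 called (limma, 0 with an unadjusted p under 0.05). Ndufaf3 had a difference of 0.36 ± 0.26 (SE), Ndufaf4 of 0.19 ± 0.27 and Ndufaf2 of 0.14 ± 0.18, each with values that overlapped between the tissues. In this group spleen 1 was the lowest array for 1 of 4 genes. It was the highest for Ndufaf4, at 1.45 against 0.48 and 0.92 in the other spleens and 1.08 to 1.21 in heart. Another tested probe of Ndufaf4 gave a difference of the opposite sign (−0.38), and the range of 0.57 between its probes was the largest of the 25 members with more than 1 tested probe.

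Complex II, succinate dehydrogenase, links the citric acid cycle to the respiratory chain and has no mitochondrially encoded subunit. Its 4 genes had a median of 0.32, with 0 called (limma, 0 with an unadjusted p under 0.05). Sdhc, a membrane anchor, had levels of 3.80, 3.67 and 3.83 in heart and 2.86, 3.32 and 3.58 in spleen, a difference of 0.51 ± 0.23 (SE, adjusted p = 0.177, limma). Sdhb, the iron-sulphur subunit, had levels of 5.37, 5.27 and 5.44 in heart and 4.43, 5.06 and 5.25 in spleen, a difference of 0.45 ± 0.25 (SE, adjusted p = 0.273). Neither gene overlapped between the tissues, and in both the spleen values were spread over more than 0.7 log2 units.
Sdha, the flavoprotein that oxidises succinate, had levels of 3.11, 3.22 and 3.31 in heart and 2.89, 2.96 and 3.20 in spleen. Its difference of 0.20 had a 95% confidence interval from −0.22 to 0.61. Sdhd, the other anchor, differed by 0.10 (interval −0.43 to 0.63), and spleen 4, at 3.89, was its highest value. Under quantile scaling the complex II median was −0.0019 and the differences of Sdha and Sdhd were below 0.

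Complex III, the cytochrome bc1 complex, had 9 genes, 8 of them above 0 under the percentile scaling and 2 of 9 under quantile scaling, with medians of 0.21 and −0.12. None was called by limma, 0 had an unadjusted p under 0.05, and spleen 1 was the lowest array for all 9. Uqcrb, a small subunit near the ubiquinone site, had levels of 4.90, 4.71 and 4.88 in heart and 3.79, 4.49 and 4.65 in spleen. Its difference was 0.52 ± 0.26 (SE, adjusted p = 0.23, limma). Uqcrq, another small subunit, had levels of 5.32, 5.14 and 5.54 in heart and 4.41, 5.10 and 5.05 in spleen, a difference of 0.48 ± 0.25 (SE, adjusted p = 0.24). In both, the groups did not overlap, by a margin of less than 0.1 log2 units. Uqcr11 differed by 0.27 ± 0.25 (SE) and overlapped. Without spleen 1, the median of complex III was 0.017.

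Cycs encodes cytochrome c, which carries electrons from complex III to complex IV and, once released into the cytosol, starts the caspase cascade of apoptosis. Its levels were 5.61, 5.09 and 5.44 in heart and 4.21, 4.91 and 4.71 in spleen. All heart values lay above all spleen values, with heart 2 and spleen 2 the closest pair. The difference was 0.77 ± 0.25 (SE), 1.70-fold, with an unadjusted p of 0.0203 and an adjusted p of 0.0906 by limma, which missed the threshold. It was above 0 under each of the 21 alternatives, from 0.39 with quantile scaling to 0.92, and was called under none of them (adjusted p 0.0663 to 0.42). Its other 2 probes gave differences of 0.75 and 0.78, the second from a probe too dim to be tested.

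Complex IV, cytochrome c oxidase, had 15 of 18 genes tested, with a median of 0.30, 13 above 0, 1 called higher and 0 lower. Under quantile scaling the median was 0.033, with 9 of 15 above 0. It is the complex whose members differed most from each other, from −0.52 to 1.84. Widely expressed subunits lay close together, apart from Cox7a2l, and the isoforms of restricted expression were spread more widely. Cox5a, which has no second isoform in the list, differed by 0.46 ± 0.24 (SE), Cox6b1 by 0.38 ± 0.28, Cox6a1 by 0.33 ± 0.20, Cox7a2 by 0.30 ± 0.25, Cox8a by 0.29 ± 0.20 and Cox4i1 by 0.29 ± 0.26. None of these 6 was called, and in each the tissues' values overlapped.

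Cox7a1, the isoform of subunit VIIa that predominates in heart and skeletal muscle, had the largest difference of all members. Its log2 level was −0.86, −0.84 and −0.41 in heart 1, heart 2 and heart 4, and −3.32, −2.05 and −2.25 in spleen 1, spleen 2 and spleen 4. All 6 values were well above background, and the lowest heart value exceeded the highest spleen value by more than 1 log2 unit. The difference was 1.84 ± 0.36 (SE, n = 3 and 3), 3.58-fold, with an adjusted p of 0.0236 by limma. It ranged from 1.39 to 2.08 over the 21 alternatives. Without spleen 1 it was 1.45 (adjusted p = 0.0128). Leaving out any 1 heart array ended the call (adjusted p 0.0878 to 0.0959), as did the earlier date in the titles alone (2 arrays per tissue, 1.84, adjusted p = 0.0971) and slide as a fixed block (1.39, adjusted p = 0.395). Cox7a2, the widely expressed isoform, had levels of 4.89, 4.75 and 5.16 in heart and 4.20, 4.87 and 4.85 in spleen. It differed by 0.30 ± 0.25 (SE, adjusted p = 0.466), and by −0.11 under quantile scaling. Cox7a2l encodes a related protein described as joining complexes III and IV into supercomplexes, and its form and function in these mice were not examined. The RNA of Cox7a2l was the other way round, with levels of 5.08, 5.22 and 5.48 in heart and 5.34, 5.61 and 5.85 in spleen. Its difference of −0.34 ± 0.21 (SE) was not called (adjusted p = 0.322), but it was called lower in heart under quantile scaling (−0.68, adjusted p = 0.0442, limma) and with the deposited value table (−0.69, adjusted p = 0.0445).

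The other muscle isoforms of complex IV were dim. Cox6a2 had levels of −3.05, −3.05 and −3.49 in heart and −0.54, −4.38 and −5.62 in spleen, so the 3 spleen values spanned the heart values on both sides. Spleen 1 was its highest array and spleen 4 was not well above background. The difference of 0.31 ± 1.22 (SE, adjusted p = 0.888, limma) was 0.21 with spleen 4 held at the lowest level that counts as above background there. It was 1.80 without spleen 1 (called, adjusted p = 0.0401) and −0.74 without spleen 4. Cox8b was above background on 1 of 3 heart arrays and on none of spleen, with measured levels of −4.79, −5.46 and −6.56 in heart and −8.03, −7.69 and −7.40 in spleen, and no fold is given for it. Cox8c and Cox7b2, testis-type isoforms, did not reach the background criterion on any of the 6 arrays.

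Cox4i2, the lung-type isoform of subunit IV, had levels of −0.46, −0.51 and −0.74 in heart and −1.19, −0.92 and −0.63 in spleen, which overlapped, and a difference of 0.34 ± 0.21 (SE). Cox6b2, a testis-type isoform, was lower in heart by its mean, with levels of 0.13, −0.02 and 0.03 in heart and −0.06, 0.89 and 0.85 in spleen. Its difference of −0.52 ± 0.29 (SE) was not called (adjusted p = 0.276, limma). In spleen 1 it lay below the heart samples and in the other spleens above them, and without spleen 1 it was called lower (−0.83, adjusted p = 0.0233). Ndufa4, first assigned to complex I and now counted as a subunit of complex IV, differed by 0.25 ± 0.23 (SE, adjusted p = 0.503), and by −0.15 under quantile scaling. Its paralog Ndufa4l2, known as a hypoxia-induced gene, was well above background on 2 of 3 heart arrays and on no spleen array. The measured levels were −3.63, −6.37 and −4.73 in heart and −6.53, −7.71 and −6.99 in spleen. Heart 2, the dim heart array, lay close to spleen 1, and the gene was not tested and is given no fold.

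Genes that mark cardiomyocytes were measured beside these isoforms, since cardiomyocytes surround the cells sorted from the ventricle. Of 22 such genes, 12 were tested, 5 were called higher in heart and 0 lower, and the median difference was 1.35. Several of these passed the filter through heart alone. With probes above background on all 6 arrays, 5 were tested and 1 was called higher (median 0.36), and with no filter 3 of 22 were called higher (median 0.60). Their summed log2 level was 1.69, 1.42 and 0.99 in heart and 0.15, 0.04 and 0.46 in spleen. Of these genes, Actc1, cardiac alpha actin, had levels of −2.42, −2.90 and −4.55 in heart and missed the background criterion on all 3 spleen arrays. Tnnt2, cardiac troponin T, met it on 1 heart array and no spleen array, and 3 of the 22 (Pln, Ttn and Myoz2) met it on no array. Myh6, the alpha myosin heavy chain, had levels of −3.19, −3.39 and −2.59 in heart and −4.45, −3.80 and −5.45 in spleen. Other markers did not separate the tissues. Tnni3, Nppa and Myh7 were above background on all 6 arrays and overlapped, with differences of −0.12, 0.24 and 0.36. Nppb met the criterion on 2 arrays of each tissue. Of the fibroblast markers, 7 of 8 tested were called higher in heart and 0 lower, again mostly genes that passed through heart. Of the 2 above background on all 6 arrays 1 was called higher, and with no filter 6 of 12. Their summed level was 3.00 to 3.26 in heart and 3.56, −0.61 and −2.09 in spleen 1, spleen 2 and spleen 4. In spleen 1 that sum was almost wholly Thy1 (3.54), the CD90 antigen of T cells that the sort also used, while Col1a1, Col1a2 and Dcn lay at −4.57, −4.16 and −5.09 there. Of the 12 fibroblast markers, 6 missed the background criterion on every spleen array. The part of cardiomyocyte or fibroblast RNA in the level of Cox7a1 was not tested.

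**Figure D3:**
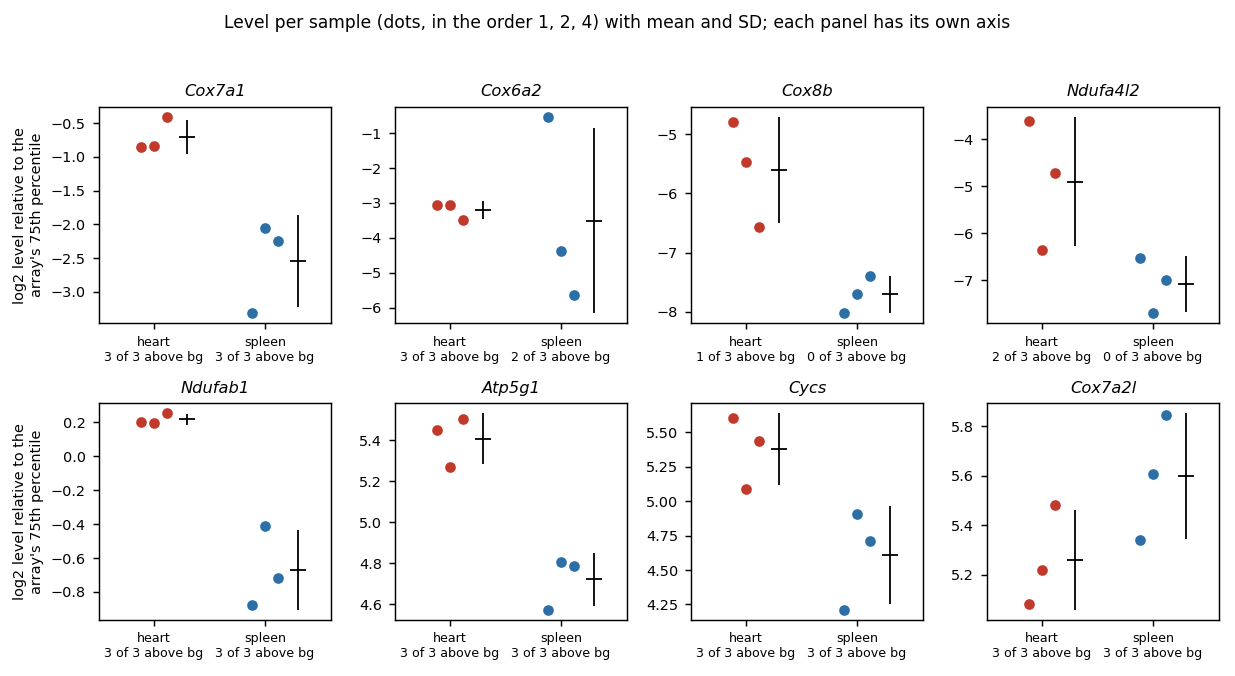
Log2 level per sample, relative to the 75th percentile of the array, of 8 genes in heart (red) and spleen (blue), each panel with its own axis; dots are samples in the order 1, 2 and 4, crosses are the mean with the SD, and the label counts the arrays well above background (bg). Cox7a1, Ndufab1, Atp5g1 and Cycs have no overlap between the tissues, while the spleen values of Cox6a2 run from −5.62 to −0.54 around the heart values.

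ATP synthase had 15 subunit genes, all tested, with a median of 0.30, 14 above 0, 1 called higher and 0 lower. Under quantile scaling the median was −0.067, with 6 of 15 above 0. The 5 genes of the F1 head, which makes ATP, had differences from 0.28 to 0.41, and the other 10 genes from −0.065 to 0.69. Spleen 1 was the lowest array for 14 of the 15. Atp5d, the delta subunit of the F1 stalk, had levels of 3.96, 3.79 and 4.13 in heart and 3.18, 3.71 and 3.78 in spleen, and its difference of 0.41 ± 0.22 (SE) was not called (adjusted p = 0.269, limma).

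The c-ring of ATP synthase, the rotor that protons turn, is built from 1 mature protein that is encoded by 3 genes, of which 1 was called. Atp5g1 had levels of 5.45, 5.27 and 5.50 in heart and 4.57, 4.81 and 4.78 in spleen, with no overlap and an SD of 0.12 and 0.13. Its difference was 0.69 ± 0.17 (SE, n = 3 and 3), 1.61-fold, with an adjusted p of 0.0422 by limma. Atp5g3 had levels of 5.57, 5.55 and 5.89 in heart and 4.90, 5.35 and 5.12 in spleen, also without overlap, and a difference of 0.55 ± 0.20 (SE) that was not called (adjusted p = 0.118). Atp5g2 had levels of 5.83, 5.75 and 5.91 in heart and 5.78, 5.94 and 5.95 in spleen, and its difference of −0.065 had a 95% confidence interval from −0.45 to 0.32 and was 0.050 with arrays centred on their median. Differences between the 3 genes were not tested against each other. Of the 4 calls, that of Atp5g1 was lost under the most alternatives, 14 of 21. Among these were quantile scaling (0.31, adjusted p = 0.222, limma), each fit without 1 heart array (adjusted p 0.127 to 0.176) and the fits without spleen 1 (0.0568) or spleen 2 (0.0645).

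Of the genes that share a name with the subunits, Atp5sl, which encodes a mitochondrial protein now known to take part in complex I assembly, was the only member called lower in heart. Its levels were 0.87, 1.11 and 1.31 in heart and 1.98, 1.66 and 2.17 in spleen, without overlap and with spleen 1 inside the range of the other spleens. The difference was −0.84 ± 0.21 (SE, n = 3 and 3), 1.79-fold lower, with an adjusted p of 0.0465 by limma, and it lay between −1.30 and −0.73 over the alternatives. Adjusted p was above 0.05 under 11 of these 21, including each fit without 1 heart array (0.103 to 0.187) and the fits without spleen 1 (0.0743) and without spleen 4 (0.0658). Atp5s differed by −0.071 ± 0.40 (SE) and Cox4nb by 0.25 ± 0.21, and neither was called.

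**Figure D4:**
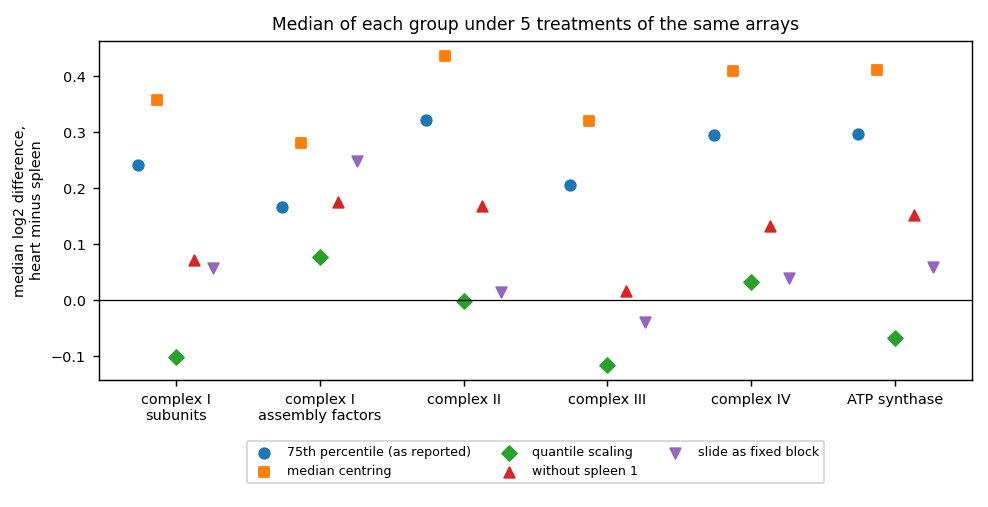
Median log2 difference, heart minus spleen, of the 6 groups under 5 treatments of the same arrays (symbols; no error is defined for a median over genes). With the 75th percentile the medians lie between 0.17 and 0.32, with arrays centred on the median between 0.28 and 0.44, and with quantile scaling between −0.12 and 0.078.

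The samples fell into batches that can be read from the titles, which carry an earlier date for numbers 1 and 2 and a later one for number 4, and from the headers, which place the arrays on 3 slides. Slide 1 held spleen 1 and spleen 2, slide 2 spleen 4 and heart 1, and slide 3 heart 2 and heart 4, so slide and tissue were largely confounded. Within the later date, heart 4 minus spleen 4 gave a median of 0.17 over the members (60 of 88 above 0) and 0.011 over all features. Within slide 2, heart 1 minus spleen 4 gave 0.047 (57 of 88) and 0.060. Neither pair has replicates. Both use spleen 4. The 4 called genes had no overlap between the tissues, so their direction in any such pair was already fixed and only sizes are given. Cox7a1 differed by 1.84 and 1.39 and Ndufab1 by 0.97 and 0.92. Atp5g1 differed by 0.72 and 0.67, and Atp5sl by −0.86 and −1.30. Within the earlier date alone the members' median was 0.31, against 0.12 over all features. There limma called 0 members, with 5 at an unadjusted p under 0.05, and 9.77% of all features.

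The genes encoded in the mitochondrial genome make up the rest of complexes I, III and IV and of ATP synthase. Of the 12 with a probe, all were tested and 0 were called (limma, 0 with an unadjusted p under 0.05), with differences from 0.0058 to 0.37. Their median was 0.16, and −0.018 with 6 of 12 above 0 under quantile scaling. ND4, a proton-pumping subunit of complex I, differed by 0.36 ± 0.18 (SE), COX1, the catalytic subunit of complex IV, by 0.053 ± 0.16, and CYTB, the core of complex III, by 0.25 ± 0.19. Spleen 1 was the lowest array for 1 of these 12, against 78 of the 88 nuclear members. Their centred average was 0.10 on spleen 1, −0.22 on spleen 2 and −0.14 on spleen 4. The probes of ND3, ND4L, COX2, COX3 and ATP8 are placed on chromosome 1 in the scanner files, and whether nuclear copies share their signal was not tested.

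Some genes that build or supply the chain were called, beside 15.4% of all features. The lists are too short to set their shares of calls apart from that. Of 28 tested assembly factors outside the name rule, 1 was called higher and 0 lower, and the median was 0.12 (−0.055 under quantile scaling). The called gene was Ttc19, which serves complex III, with levels of −0.95, −1.10 and −0.94 in heart and −2.47, −3.17 and −2.37 in spleen. Its difference was 1.67 ± 0.25 (SE, adjusted p = 0.012, limma). The array's older names missed part of this list: with names through RefSeq, 40 were tested and 2 called higher. Of the 28, normexp background correction or array weights called 2 higher, and averaging all probes of a gene called 0. Of 19 tested genes of ubiquinone synthesis and other electron donors, 1 was called higher and 1 lower, and the median was 0.025 (−0.090 under quantile scaling). Coq10b, a ubiquinone-binding protein, was 6.26-fold higher in heart, with levels of 2.33, 2.55 and 2.15 against −0.48, −0.59 and 0.15 (difference 2.65 ± 0.25, SE, adjusted p = 0.0031). Pdss2, which makes the side chain of ubiquinone, was lower in heart, with levels of −4.14, −3.96 and −3.55 against −2.85, −2.52 and −3.07 (difference −1.07 ± 0.24, SE, adjusted p = 0.033). Of 15 tested genes of mitochondrial biogenesis and transcription, 0 were called higher and 1 lower, and the median was −0.12. The called gene was Tfam, which packages mitochondrial DNA and serves its transcription. Its levels were 0.64, 0.90 and 0.99 in heart and 2.20, 1.58 and 1.89 in spleen. Its difference was −1.05 ± 0.22 (SE, adjusted p = 0.028), and Ppargc1a and Ppargc1b, coactivators of biogenesis, were too dim to be tested. Coq10b was called under each alternative but slide as a fixed block (adjusted p = 0.10, limma). The calls of Ttc19, Tfam and Pdss2 were lost without any 1 of the heart arrays (adjusted p 0.0587 to 0.138, limma) and with slide as a fixed block (0.236 to 0.28). With all probes of a gene averaged, Ttc19 was 1.11 (adjusted p = 0.0543) and Tfam −0.88 (0.0725). Tfam was also lost with arrays centred on their median (0.0717), with no filter (0.063) and within the earlier date (0.10). Pdss2 was lost under most alternatives, among them arrays centred on their median (0.0779), normexp (−0.59, 0.0808) and the fits without spleen 1 (0.0529) or spleen 2 (0.0723).

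Promoters of subunit genes are known for binding sites of NRF1, of ETS factors such as GABPA and of YY1, which are thought to tie their expression together. The RefSeq table of assembly GRCm38.p6 held 78 promoters of 73 of the 89 subunit and assembly factor genes, and the 250 bases before each start were searched on both strands. The promoter of Cycs is printed because, of the members with an NRF1 core there, it had the largest difference, and that of Cox7a1 because it is the member with the largest difference and held none of the 6 motifs searched. Cycs matched 3 of them, as did Atp5l, Cox6a1 and Atp5j. Capitals mark the matches, in the order cyclic AMP response element, hypoxia response element core and NRF1 core.
Cycs: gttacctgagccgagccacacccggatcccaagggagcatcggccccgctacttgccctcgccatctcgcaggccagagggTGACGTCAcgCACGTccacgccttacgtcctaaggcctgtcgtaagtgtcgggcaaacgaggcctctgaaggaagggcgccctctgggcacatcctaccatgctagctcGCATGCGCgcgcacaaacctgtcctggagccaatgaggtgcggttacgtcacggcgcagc
Cox7a1: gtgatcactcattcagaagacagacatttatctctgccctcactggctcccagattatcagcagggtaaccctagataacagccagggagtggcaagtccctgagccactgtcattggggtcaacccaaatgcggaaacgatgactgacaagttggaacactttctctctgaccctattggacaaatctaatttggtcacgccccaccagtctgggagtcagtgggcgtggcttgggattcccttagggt
The Cycs stretch is chr6:50566570-50566819 on the minus strand and the Cox7a1 stretch is chr7:30183921-30184170 on the plus strand, both in GRCm38.p6. In Cycs, the NRF1 core lay 60 to 53 bases before the start, the cyclic AMP response element 169 to 162 and the hypoxia response element core 159 to 155. The NRF1 core (GCGCATGC) was found in 12.8% of the members' promoters and in 2.26% of all 32851 promoters in the table. The ETS motif (CCGGAAG) was found in 16.7% and 6.91%, the cyclic AMP response element (TGACGTCA) in 6.41% and 1.55%, and the YY1 motif (AANATGGCG) in 3.85% and 1.12%. For the SP1 motif (GGGCGG) the shares were 37.2% and 32.7%, and for the hypoxia response element core (ACGTG) 21.8% and 16.6%. No pair of these motifs contains the other, though sites can lie side by side. A match of letters is a description of the sequence and not a binding site.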

How the data were processed

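Each deposited scanner file gives a linear intensity per spot, which per the submitters' processing notes the authors made in Agilent Feature Extraction 10.7.3.1. The background is already subtracted and arrays are not scaled to each other. The deposited value table holds log2 values that matched quantile-normalized signals in their differences between arrays (r at least 0.9998, 19313 probes). All its columns had a median of 0, its baseline per probe stays unknown, and it served as an alternative.

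Control and outlier spots were left out, log2 signals were set against each array's 75th percentile (1557 to 1989 intensity units), and spots of a probe were averaged. On the arrays, 52.8% to 63.6% of probes were above background, and 0 spots were saturated. Names are the array's, and 91 of the 92 members matched RefSeq by accession. Heart was compared with spleen by limma 3.58.1 (lmFit, eBayes, two-sided) in R 4.3.3, with data.table (version 1.17.8), matplotlib 3.10.9 and Python 3.11.15. The code was run on simulated arrays with independent noise of the same SD in both tissues. In the real arrays the SD was mostly larger in spleen, so that run does not test the fit under their spread. Adjusted p-values are Benjamini-Hochberg over 17772 features. Intervals are 95% intervals of this fit, and medians over genes carry no test. Summed levels are log2 of the sum of linear levels.

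Named members are those called, the 3 with the largest difference per group, the isoform families, Cycs and complex II. The members, lists and alternatives were chosen with earlier results of these data known. The 21 alternatives change scaling, background correction, source of values, filter, probe choice, names, variance model, date, slide and replicate number, or leave out an array. Of the marker lists not given above, 1 of 4 endothelial genes was called higher, and 0 of 5 dendritic cell genes was called (limma, 3 at an unadjusted p under 0.05).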

Additional observations from a re-analysis of the deposited data

How the results depend on the processing

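With 3 arrays per tissue, and with slide largely confounded with tissue, the 95% confidence intervals of all but 6 of the 88 tested members included 0, and dim probes (Cox6a2, Cox8b, Ndufa4l2) are limited by background. Over the 21 alternatives, 144 recomputed counts and medians stayed within 1.5 times or within the replicate spread and 45 did not. Gene values were recomputed in this way for the 31 named members only. Of these values, 584 kept their direction and side of the threshold, 38 lost a call, 4 gained one and 24 changed sign. The cause of the other changes was not tested, except where fewer samples or more features tested are part of the setting.

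Quantile scaling gave medians of −0.10 (complex I subunits), 0.078 (assembly factors), −0.0019 (complex II), −0.12 (complex III), 0.033 (complex IV) and −0.067 (ATP synthase), with 2 members called lower. It reversed Cox7a2 (−0.11), Ndufa4 (−0.15), Sdha (−0.067), Sdhd (−0.21) and Uqcr11 (−0.12). The deposited value table gave −0.10 (complex I subunits), 0.0035 (complex II), −0.11 (complex III), 0.037 (complex IV) and −0.063 (ATP synthase), 2 called lower, and the same reversals (−0.11, −0.15, −0.062, −0.21 and −0.12). With arrays centred on the median, 1 member was called higher and 0 lower, the assembly factors' median was 0.28 and Atp5g2 was 0.050. Normexp gave −0.040 for Cox6a2. Without a filter, 1518 features and 1 member higher and 0 lower were called. Averaging probes gave a median of 0.031 for the assembly factors, 0.0031 for Atp5g2 and −0.092 for Ndufaf4. Array weights left 0 members called lower.

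The arrays of the earlier date alone gave 1841 features called, 0 members called higher, 0 lower and −0.60 for Cox6a2. Slide as a fixed block rests its difference on heart 1 and spleen 4. It called 51 features, 0 members higher and 0 lower (2 at an unadjusted p under 0.05, limma). Its medians were 0.057 (complex I subunits), 0.25 (assembly factors), 0.015 (complex II), −0.038 (complex III, 4 of 9 above 0), 0.039 (complex IV) and 0.060 (ATP synthase). Over all tested members, 57 of 88 were above 0. Of the named members, it reversed Cox6b1 (−0.012), Ndufa4 (−0.087), Sdha (−0.092), Sdhd (−0.20) and Uqcr11 (−0.038).

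With the replicate number as a block, limma called 1553 features and, of the members, 1 higher (Cox7a1) and 0 lower, and Tfam (adjusted p = 0.0808) and Pdss2 (0.0886) were not called. The numbers were not taken to pair the samples, because no pairing is stated. Deviations from the tissue means correlated at −0.084, 0.071 and 0.0048 between same-numbered samples across 17701 features. Between samples of unlike number they correlated at −0.126 to 0.093. Such correlations cannot show whether a spleen and a ventricle came from the same animal.

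Leaving out each array in turn, the features called ranged from 472 (without heart 1) to 4364 (without spleen 4), members called higher from 0 to 4 and lower from 0 to 1. Each fit without a heart array called 0 members (4 to 6 at an unadjusted p under 0.05) and 472 to 554 features. The medians ranged from 0.072 to 0.38 (complex I subunits), 0.035 to 0.20 (assembly factors), 0.17 to 0.45 (complex II), 0.017 to 0.35 (complex III), 0.13 to 0.43 (complex IV) and 0.15 to 0.39 (ATP synthase). Those below 0.1 came without spleen 1, and without spleen 2 for the assembly factors. Among the named members, sign changes left Sdhd between −0.089 (without spleen 1) and 0.26 and Ndufaf4 between −0.044 (without spleen 2) and 0.44. Cox6a2 lay between −0.74 (without spleen 4, and −0.12 without spleen 2) and 1.80.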
